A study of Mus musculus with 60 samples.

Results

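The Shank, Dlgap and Homer genes were examined as the postsynaptic scaffold family of the series: Shank1, Shank2, Shank3, Dlgap1, Dlgap2, Dlgap3, Dlgap4, Homer1, Homer2 and Homer3. A peak belonged to the family if the gene symbol assigned to it was one of these 10. The family was chosen on earlier results of the same lists, in which Shank3 carried H4K8ac in exercised lists and not in sedentary lists of 3 arms, so the presence or absence of Shank3 peaks is given below as a description. All 10 genes had at least 1 peak, among 16994 gene symbols with a peak of either mark. They held 377 of 256375 peaks, of which 364 were H4K8ac peaks (of 155961) and 13 were H3K27me3 peaks (of 100414).

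CUT&RUN-seq was performed on nuclei of hippocampal neurons from male Emx1-NuTRAP mice, the offspring of Emx1-IRES-Cre females and NuTRAP males, in which Cre made from the Emx1 locus from development onward switches on tags on nuclei and ribosomes. All groups carried this genotype, so a group without Cre was not part of the comparison. Exercised mice lived in pairs with a wheel over postnatal days 21 to 41, sedentary mice stayed in standard cages, and hippocampi were taken on postnatal day 42. Nuclei came from both hippocampi together with RNA (SIT), or separately from the left or the right hippocampus. These isolations are called arms. The labels give 60 samples, 20 of them IgG controls, and each of the 18 groups holds 4 samples (SIT) or 3 (separate arms). The values are 12 peak lists, since every combination of mark, arm and condition has its own. A list holds intervals and no signal, count or sample of origin, so that the depth behind a list is unknown, there are no replicate values and no difference between lists could be tested.

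H4K8ac is an acetylation of histone H4 found at active regulatory DNA, and H3K27me3 is a methylation laid down by Polycomb proteins at silent genes. Shank proteins are the deep scaffold of the excitatory postsynapse. Dlgap proteins, also called SAPAP or GKAP, connect the membrane-associated Dlg scaffolds to Shank, and Homer proteins connect Shank to group I metabotropic glutamate receptors and to calcium channels of internal stores. Homer1 also makes a short, activity-induced form that lacks the coiled coil and uncouples these links. Shank3 and Shank2 are known for transcripts that start at several promoters inside the gene.

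Between 12168 and 38136 peaks made up an H4K8ac list, and between 9899 and 25693 an H3K27me3 list. The H4K8ac lists held 38136 exercised and 30358 sedentary peaks in SIT, 12168 and 36425 in left separate, and 13715 and 25159 in right separate. Exercise thus had the longer H4K8ac list in SIT and the shorter list in both separate arms. Per the study's methods, libraries with a high false discovery rate were excluded, all of them exercised H4K8ac libraries and most of them from the separate arms. Outliers of both conditions, more of them sedentary, were also removed from the RNA libraries. Whether the chromatin libraries of those mice were kept is not clear from the methods. The study's captions that cover CUT&RUN of SIT give fewer mice than the labels in each condition, and fewest for sedentary. They do not say which libraries entered a list. Each list of either condition may thus hold fewer libraries than the labels give. The part of this in any count below was not tested. Of 6 excitatory neuron markers, 2 to 4 had an H4K8ac promoter peak in a list, and of 6 interneuron markers none did, while 5 of 6 interneuron markers had an H3K27me3 promoter peak in each list. With that mark at the promoter were also 1 of 6 excitatory neuron markers in each list, 2 to 3 astrocyte, 2 to 3 oligodendrocyte and 1 to 3 microglia markers. Astrocyte markers with an H4K8ac promoter peak numbered 1 to 4 of 6, oligodendrocyte markers 1 to 2 and microglia markers 1 to 2. The part of such cells in the peaks below was not tested.

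**Figure D1:**
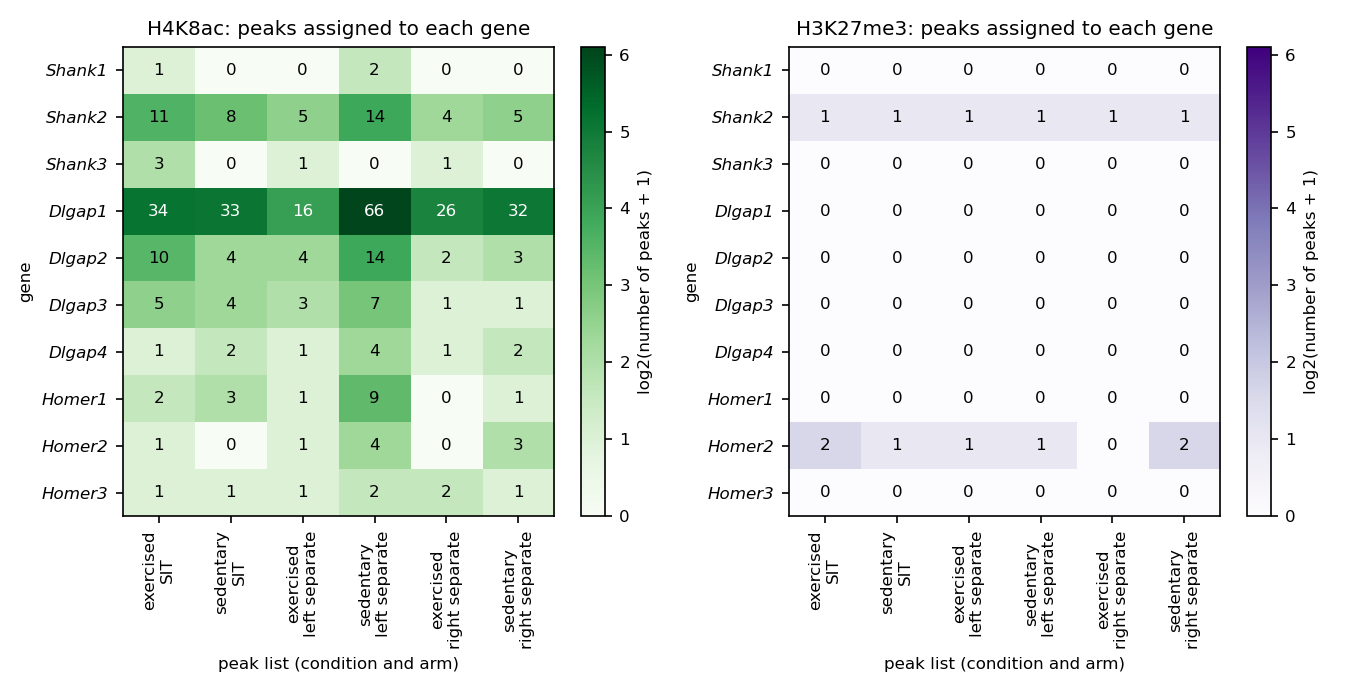
Number of H4K8ac (left) and H3K27me3 (right) peaks assigned to each of the 10 genes in each peak list, with colour on a log2(number + 1) scale. Dlgap1 holds 16 to 66 H4K8ac peaks in every list, Shank3 holds peaks in the exercised lists alone, and H3K27me3 peaks are assigned to Shank2 and Homer2 alone.

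All 5 peaks of Shank3 (chr15:89499623-89560261, plus strand, mm10) lay in exercised H4K8ac lists. There were 3 in SIT, 1 in left separate and 1 in right separate, against 0 in each of the 3 sedentary lists. Each of the 5 was in the promoter class, which the authors set at 3 kb either side of a transcript start. They did not mark 1 promoter. In SIT, a peak of 990 bp (chr15:89498193-89499182) ended 441 bp before the 5′ end of the gene, a peak of 2176 bp (chr15:89531644-89533819) covered the start of a shorter coding transcript at position 89532890, and a peak of 1105 bp (chr15:89548165-89549269) began 539 bp past a start near the 3′ part of the gene, at 89547626, that the lists name and GENCODE M21 does not have. In left separate, a peak of 1766 bp (chr15:89532164-89533929) covered the same internal start at 89532890. In right separate, the peak of 1411 bp (chr15:89544590-89546000) ended 1626 bp before the start near the 3′ part. Thus SIT and left separate shared 1656 bp at the internal start, and the right separate peak overlapped neither.

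The nearest sedentary peaks of any gene were 31.1 kb from Shank3 in SIT, 44.6 kb in left separate and 22.6 kb in right separate. No sedentary peak given to a neighbouring gene covered the Shank3 gene or the 3 kb before it. Among all symbols listed in either condition of an arm, 27.5% were listed in the exercised list alone in SIT, 3.58% in left separate and 9.14% in right separate. Over 13585 symbols with H4K8ac, 17 were in the exercised list alone in all 3 arms, and 121 in the sedentary list alone in all 3 arms. The H4K8ac pattern nearest to Shank3 among those 17, by summed peak width over the lists (7448 bp for Shank3), belonged to Ikbke (7410 bp), Pla2g6 (6955 bp), Rnd3 (6568 bp), H6pd (6223 bp) and Snx21 (6001 bp).

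The 300 bases of GRCm38 nearest the middle of the stretch that SIT and left separate shared at Shank3, and free of annotated exons, are shown because they lie just before the internal start at 89532890. Capitals mark CpG dinucleotides.
Shank3 internal promoter, chr15:89532586-89532885, plus strand: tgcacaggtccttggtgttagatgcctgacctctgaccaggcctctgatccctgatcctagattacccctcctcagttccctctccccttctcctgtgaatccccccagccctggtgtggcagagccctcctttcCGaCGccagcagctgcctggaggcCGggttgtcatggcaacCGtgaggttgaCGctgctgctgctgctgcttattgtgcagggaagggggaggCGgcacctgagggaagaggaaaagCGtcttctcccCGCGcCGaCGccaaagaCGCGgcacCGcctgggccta
This window held 14 CpG and 62.7% G+C. At the centres of all H4K8ac peaks the median was 3 CpG and 44.3% G+C in windows of the same length, and 5.21% of them held at least 14 CpG. The CpG of the window lay mostly in its last part, toward the start site. The motifs searched on both strands were the full cAMP response element, spelled TGACGTCA, its shorter form TGACG, which the full form contains, the GC box GGGCGG, the AP-1 site TGANTCA, the E-box CAGCTG and the TATA box TATAAA. The window held the shorter TGACG and the E-box at 1 position each. These were present in 11.0% and 15.1% of H4K8ac peak centres.

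Shank1 (chr7:44310253-44360572, plus strand), which encodes another Shank scaffold, had 3 H4K8ac peaks, and no place was shared between lists. Exercised SIT held 1 peak, of 1865 bp, over the 3′ end (chr7:44359780-44361644). Sedentary left separate held 2 peaks, 1 of 1148 bp in the promoter class of an internal start and 1 of 1765 bp over exon 24. The other 4 H4K8ac lists held none, with the nearest peak of any gene 12005 to 13426 bp away. No Shank1 start was inside a peak.

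**Figure D2:**
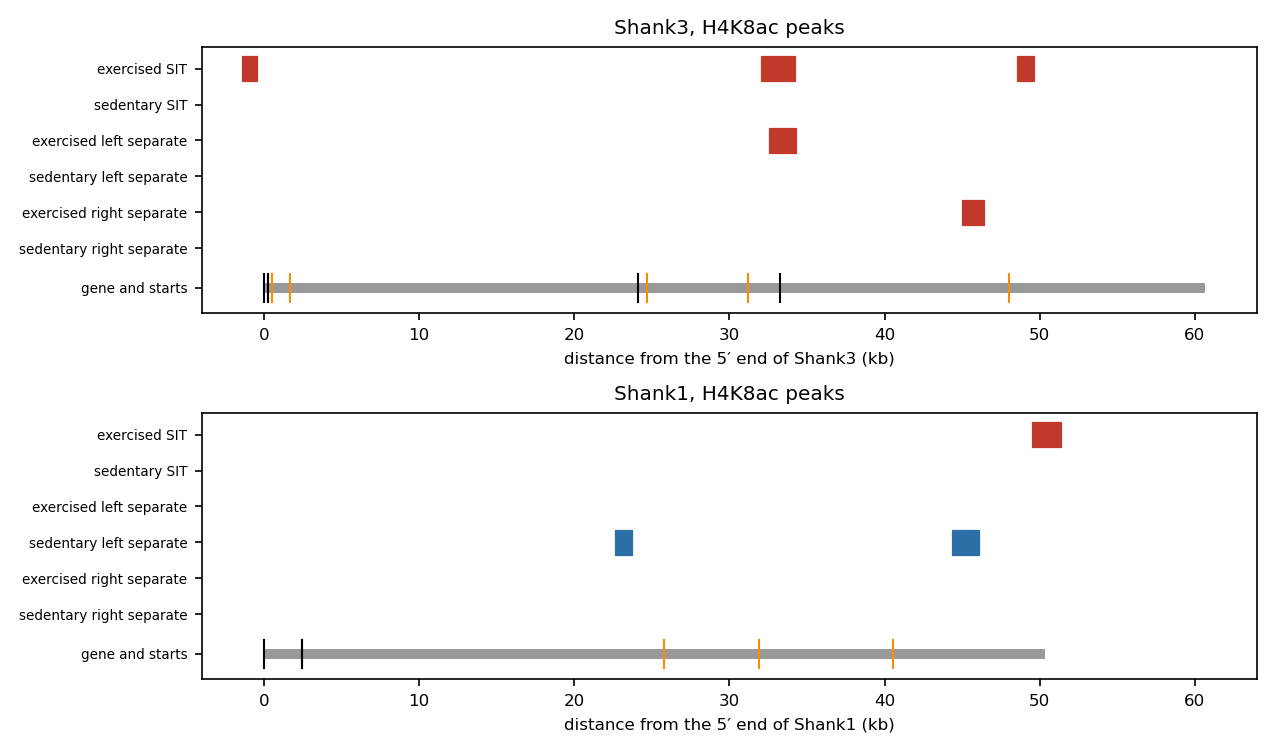
H4K8ac peaks (bars, red for exercised and blue for sedentary lists) along Shank3 and Shank1, with distance in kb from the 5′ end of the gene on the x axis and 1 row for each list. The grey bar is the gene, black ticks are starts of protein-coding transcripts and orange ticks are other starts. Red bars at Shank3 stand at 4 places, of which the one over the start at 89532890 is held by SIT and left separate and each other place by 1 list.

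Shank2 (chr7:144001928-144424494, plus strand) had H4K8ac in every list, with 11, 5 and 4 peaks in exercised SIT, left and right separate and 8, 14 and 5 in the sedentary lists. The counts were higher for exercise in SIT and lower in both separate arms, the same order as the lengths of the lists. Of 47 Shank2 peaks, 32 were intronic and 11 in promoters. None was near the 5′ end of the gene: the nearest peak in any list was 35.4 kb from it. The promoter peaks were at internal starts, at 144175529 (inside a peak of exercised SIT), at 144284439 and 144284545 (inside peaks of exercised SIT and sedentary left separate) and at 144417825, the start of a transcript near the 3′ end that was inside a peak in 4 lists. The place around this last start (chr7:144412255-144418886) held a peak in all 6 lists, though 58 bp was the most that 5 of them had in common. The Shank2 place with the widest agreement was in intron 10, 131 kb from the 5′ end (chr7:144131734-144135134). All lists but sedentary SIT held it, and 5 lists had 1038 bp in common.

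Shank2 was also 1 of 2 members with H3K27me3, a mark that 7399 of all 16994 symbols had in at least 1 list. A single H3K27me3 peak stood in each of the 6 lists, upstream of the gene and outside it. The peak was 9560 bp wide in exercised SIT, 8893 bp in sedentary SIT, 9143 bp in exercised left separate, 8227 bp in sedentary left separate, 5059 bp in exercised right separate and 8511 bp in sedentary right separate. The exercised right separate peak, from the shortest H3K27me3 list, was the narrowest. The exercised peak was the wider in SIT and left separate and the narrower in right separate. All 6 had 4950 bp in common (chr7:143975392-143980341), and the merged place ended 18.0 kb before Shank2. The next coding gene on the other side, Gm498, was 73.8 kb away. The assignment to Shank2 is one of distance.

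Homer2 (chr7:81600481-81707527, minus strand), a Homer scaffold of the long, coiled-coil kind, was the other member with H3K27me3. A place before its 5′ end (chr7:81712141-81717307) held a peak of 5035 bp in exercised SIT, 2542 bp in sedentary SIT, 2054 bp in exercised left separate, 2994 bp in sedentary left separate and 2823 bp in sedentary right separate. Exercised right separate held none. The near edges of the peaks were 4614 to 6787 bp from the gene, and 5 lists had 407 bp in common. A second place, 18.0 kb before the gene (chr7:81725538-81728839), was held by exercised SIT and sedentary right separate, which were the longer H3K27me3 lists of their arms.

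The middles of these shared stretches are shown because Shank2 is the one member with both marks in all 6 lists, and its H3K27me3 place can be set beside its H4K8ac place and that of Homer2. Capitals mark CpG dinucleotides, and the plus strand is given.
Shank2 upstream H3K27me3 place, chr7:143977716-143978015: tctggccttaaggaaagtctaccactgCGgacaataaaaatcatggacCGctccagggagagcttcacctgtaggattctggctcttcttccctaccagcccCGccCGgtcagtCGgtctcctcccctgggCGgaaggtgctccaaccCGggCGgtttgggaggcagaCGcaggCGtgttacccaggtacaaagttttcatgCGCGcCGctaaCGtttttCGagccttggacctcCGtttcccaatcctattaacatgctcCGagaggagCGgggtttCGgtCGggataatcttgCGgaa
Shank2 intron 10 H4K8ac place, chr7:144132402-144132701: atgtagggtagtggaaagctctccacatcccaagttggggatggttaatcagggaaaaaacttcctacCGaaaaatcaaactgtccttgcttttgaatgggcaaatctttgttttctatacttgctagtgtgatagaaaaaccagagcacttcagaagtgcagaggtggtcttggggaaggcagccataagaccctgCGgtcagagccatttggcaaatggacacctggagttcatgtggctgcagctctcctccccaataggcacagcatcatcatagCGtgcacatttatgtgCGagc
Homer2 upstream H3K27me3 place, chr7:81714367-81714666: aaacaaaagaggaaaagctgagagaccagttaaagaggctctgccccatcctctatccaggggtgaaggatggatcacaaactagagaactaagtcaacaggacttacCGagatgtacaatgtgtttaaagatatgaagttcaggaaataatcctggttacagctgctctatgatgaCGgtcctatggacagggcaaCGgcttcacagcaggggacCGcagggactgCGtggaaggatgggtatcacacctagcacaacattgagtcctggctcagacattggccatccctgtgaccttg
The Shank2 H3K27me3 window held 21 CpG at an observed to expected ratio of 0.86, with 57.0% G+C. Only 1.32% of H3K27me3 peak centres held as many. It also held GGGCGG at 3 positions, a motif found in 5.38% of those centres. The intron 10 window held 4 CpG, a ratio of 0.24, and 43.4% of H4K8ac peak centres held at least as many. The Homer2 window held 5 CpG, a ratio of 0.28, and 26.5% of H3K27me3 centres held at least as many. The median H3K27me3 centre held 3 CpG. The Homer2 window held TGACG and the E-box at 1 position each, and the intron 10 window held none of the motifs.

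H3K27me3 was thus never called at a start site of the family: 0 of 88 annotated starts were inside an H3K27me3 peak, and 0 of 60 pairs of gene and list had an H3K27me3 promoter peak. The 88 starts belong to 10 genes, and the share of all annotated starts inside an H3K27me3 peak was not computed. Over all symbols, an H3K27me3 promoter peak was present for 21.0% in exercised SIT, 16.7% in exercised left separate, 11.2% in exercised right separate, 13.2% in sedentary SIT, 14.9% in sedentary left separate and 19.6% in sedentary right separate. With Homer2 and Shank2 the listed members, no member was in the exercised H3K27me3 list alone in any arm, where the share of all symbols was 41.4% in SIT, 18.5% in left separate and 3.12% in right separate. In the sedentary list alone was 1 member in right separate (Homer2), where the share was 43.6%, and none in SIT (1.02%) or left separate (9.13%). Within an arm and condition, 0 member H4K8ac peaks touched H3K27me3, and 0.117 to 0.7% of all H4K8ac peaks did.

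**Figure D3:**
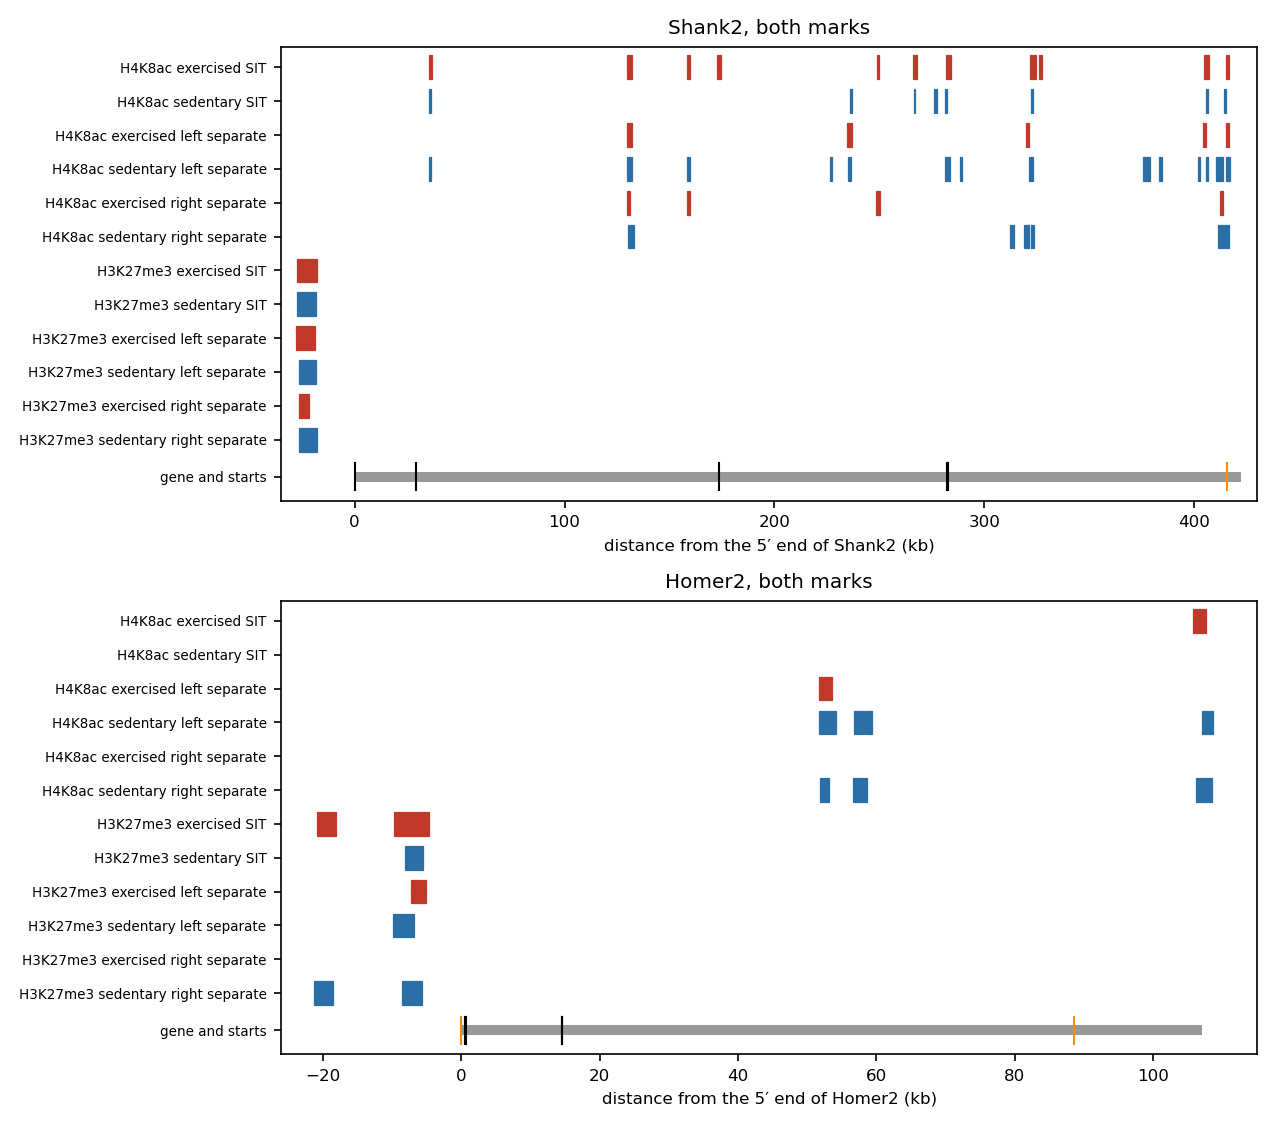
H4K8ac and H3K27me3 peaks (bars, red for exercised and blue for sedentary lists) at Shank2 and Homer2, with distance in kb from the 5′ end of the gene on the x axis, negative before it, and 1 row for each list and mark. Black ticks are starts of protein-coding transcripts and orange ticks are other starts. H3K27me3 bars stand before the genes and H4K8ac bars inside or past them.

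The H4K8ac peaks of Homer2 were at 3 places, and none was at a promoter. The 5′ end of the gene was 51.7 kb from the nearest H4K8ac peak of any list. Exercised SIT had 1 peak and sedentary SIT 0. Exercised left separate had 1 and sedentary left separate 4. Exercised right separate had 0 and sedentary right separate 3. So Homer2 was in the exercised list alone in SIT and in the sedentary list alone in right separate. The place at the 3′ end (chr7:81598821-81601769) was held by exercised SIT and both sedentary separate lists, and an intron place (chr7:81653366-81655864) by exercised left separate and both sedentary separate lists.

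Dlgap1 (chr17:69969073-70821413, plus strand), which encodes the Dlgap protein that binds Shank and Dlg scaffolds, held 207 of the 364 H4K8ac peaks. It had 34, 16 and 26 peaks in exercised SIT, left and right separate, and 33, 66 and 32 in the sedentary lists. The values nearly met in SIT and were lower for exercise in the separate arms, where the exercised lists were shorter. By number of peaks Dlgap1 ranked 61st, 41st and 13th of the symbols in the exercised lists and 47th, 9th and 25th in the sedentary lists. Of the 207 peaks, 189 lay over the gene or the 3 kb before it and 18 elsewhere. The gene is 852 kb long, and numbers of assigned peaks are also given per 100 kb of gene, with assigned peaks outside the gene counted for every gene. Dlgap1 had 1.88 to 7.74 H4K8ac peaks per 100 kb, where the median of 354 coding genes of 400 kb or more was 0.282 to 1.45 and their upper quartile 0.754 to 3.07. In each list Dlgap1 lay above that upper quartile. Dlgap2, 752 kb long, lay between 0.266 and 1.86 per 100 kb, below the median of long genes in 4 of 6 lists, and Shank2, 423 kb long, between 0.947 and 3.31, above the median in all 6.

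Of the Dlgap1 peaks, 172 were in the intron class and 11 in promoters. The intron class held 2 peaks in an intron of the lincRNA AC165264.1 upstream, and 170 inside Dlgap1. They formed 92 separate places, 56 of them in a single list. There were 22 places held by 3 or more lists and 4 held by all 6. A stretch of 752 bp in intron 4, 517 kb from the 5′ end (chr17:70485850-70486601), was the one H4K8ac stretch of the family covered in all 6 lists. The peaks over it were 5013 bp wide in exercised SIT, 2890 bp in exercised left separate, 2443 bp in exercised right separate, 3164 bp in sedentary SIT, 1280 bp in sedentary left separate and 1984 bp in sedentary right separate. The exercised peak was the wider of the pair in each arm. The median H4K8ac peak of the whole list was also wider for exercise in SIT (1819 against 1265 bp) and left separate (1769 against 1453 bp), and narrower in right separate (1566 against 1880 bp). One place was held by the 3 sedentary lists and no exercised list (chr17:70445769-70447792, intron), with 1310 bp in common, and no Dlgap1 place was held by the 3 exercised lists alone.

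The main Dlgap1 promoter with H4K8ac was not at the 5′ end of the gene but at a group of starts inside it, from 70521677 to 70522162. A place of 4801 bp (chr17:70520360-70525160) was held by all lists but sedentary left separate, with 776 bp in common to 5 lists. The peak was 4801 bp wide in exercised left separate, 3219 bp in sedentary SIT, 2833 bp in exercised right separate, 1253 bp in sedentary right separate and 889 bp in exercised SIT, so width did not order the lists by condition. It covered the start at 70522136, that of a coding transcript, in 4 lists. In exercised SIT it began 112 bp past the last start of the group. At the 5′ end of the gene itself the nearest peaks were in sedentary left separate, ending 510 bp before it, and in exercised right separate, beginning 384 bp past the last start of the group there, at 69969421. Neither covered a start.

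The 6-list stretch and the stretch just past the internal starts are shown as the Dlgap1 sequence on which most lists agreed. Capitals mark CpG dinucleotides, on the plus strand.
Dlgap1 intron 4 place, chr17:70486075-70486374: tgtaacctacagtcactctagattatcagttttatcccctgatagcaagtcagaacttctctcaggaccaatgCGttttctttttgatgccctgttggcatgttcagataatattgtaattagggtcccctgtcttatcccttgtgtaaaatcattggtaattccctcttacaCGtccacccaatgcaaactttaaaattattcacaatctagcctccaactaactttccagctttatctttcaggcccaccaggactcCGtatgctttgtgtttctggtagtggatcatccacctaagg
Dlgap1 internal start place, chr17:70522511-70522810: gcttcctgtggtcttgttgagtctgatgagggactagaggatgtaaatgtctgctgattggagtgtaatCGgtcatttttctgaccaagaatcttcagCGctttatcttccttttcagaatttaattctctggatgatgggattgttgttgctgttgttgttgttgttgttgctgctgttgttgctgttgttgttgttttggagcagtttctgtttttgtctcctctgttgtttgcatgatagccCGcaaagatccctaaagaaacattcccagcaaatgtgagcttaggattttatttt
Each Dlgap1 window held 3 CpG, the median of all H4K8ac peak centres, with 41.3% and 40.3% G+C. Neither held any of the motifs searched.

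**Figure D4:**
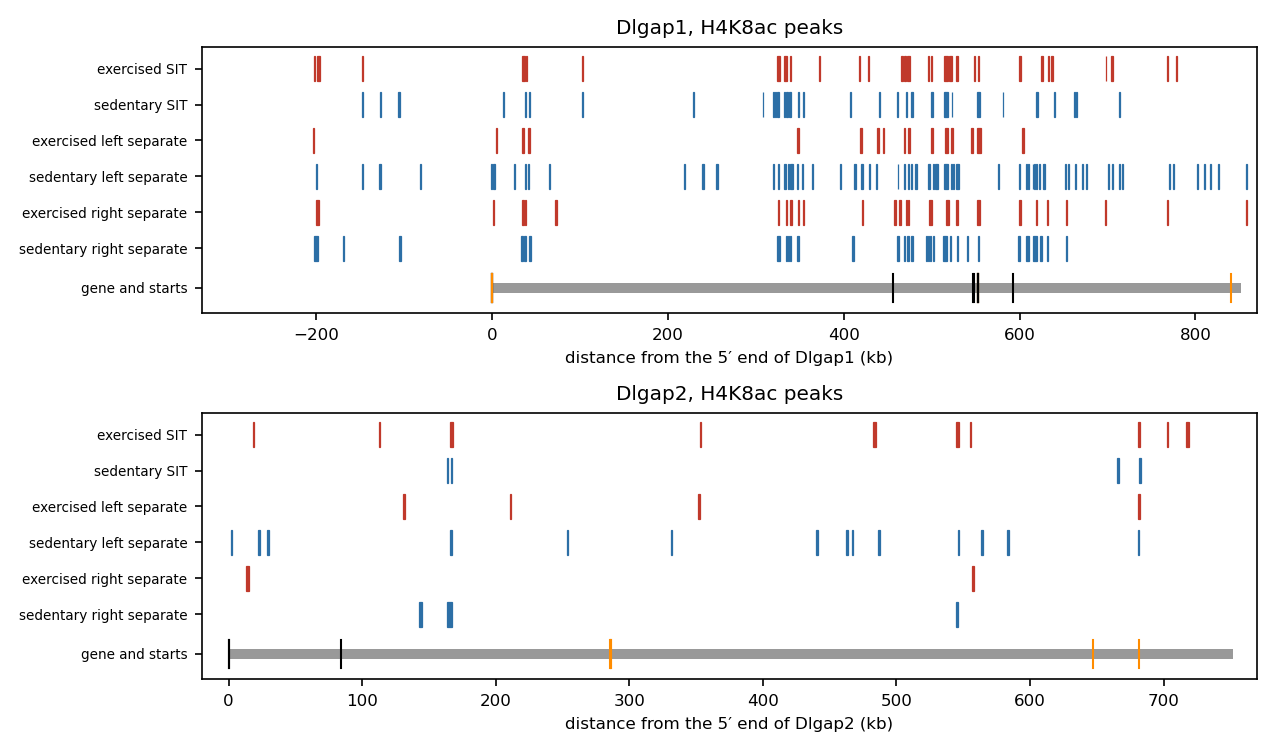
H4K8ac peaks (bars, red for exercised and blue for sedentary lists) along Dlgap1 and Dlgap2, with distance in kb from the 5′ end of the gene on the x axis, negative before it, and 1 row for each list. Black ticks are starts of protein-coding transcripts and orange ticks are other starts. Dlgap1 has 16 to 66 bars a list, and Dlgap2 has 2 to 14 bars a list, most at places held by a single list.

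Dlgap2 (chr8:14095865-14847680, plus strand), a paralog of Dlgap1, had 10, 4 and 2 peaks in exercised SIT, left and right separate and 4, 14 and 3 in the sedentary lists. Of its 27 places, 23 were in a single list. A promoter place 682 kb into the gene (chr8:14776679-14778692) covered the start of a non-coding transcript at 14777773 in exercised and sedentary SIT and in exercised and sedentary left separate, with 328 bp in common. Neither right separate list held it. An intron 2 place (chr8:14259495-14263744) was held by exercised SIT and all 3 sedentary lists.

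Dlgap3 (chr4:127169204-127237022, plus strand), a Dlgap scaffold of the same kind, had H4K8ac in its own 5′ region. There were 5, 3 and 1 peaks in exercised SIT, left and right separate and 4, 7 and 1 in the sedentary lists, and each of the 6 lists held a promoter peak. A short place just before the gene (chr4:127167949-127169021) was held by exercised SIT, sedentary SIT and sedentary left separate, and came within 183 bp of the 5′ end without covering it. A broad place (chr4:127169609-127180738) was held by all 6 lists and covered the second start, at 127172880, in exercised left separate, sedentary left separate and sedentary right separate. The widest H4K8ac peak of the family was here, 7226 bp in sedentary right separate. At 324 bp 5 lists met, all but sedentary SIT.

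The 250 bases before the Dlgap3 start at 127172880, from RefSeq on GRCm38.p6, and the middle of the stretch shared by 5 lists are shown because this is the single RefSeq promoter of the family that H4K8ac touched. Capitals mark CpG dinucleotides, on the plus strand.
Dlgap3 promoter, from 250 bases before the start: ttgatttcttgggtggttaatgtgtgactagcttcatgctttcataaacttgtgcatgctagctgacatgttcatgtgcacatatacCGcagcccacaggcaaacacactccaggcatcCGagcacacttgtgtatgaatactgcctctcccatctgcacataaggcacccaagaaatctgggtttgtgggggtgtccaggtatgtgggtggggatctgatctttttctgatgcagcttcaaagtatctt
Dlgap3 shared stretch, chr4:127174011-127174310: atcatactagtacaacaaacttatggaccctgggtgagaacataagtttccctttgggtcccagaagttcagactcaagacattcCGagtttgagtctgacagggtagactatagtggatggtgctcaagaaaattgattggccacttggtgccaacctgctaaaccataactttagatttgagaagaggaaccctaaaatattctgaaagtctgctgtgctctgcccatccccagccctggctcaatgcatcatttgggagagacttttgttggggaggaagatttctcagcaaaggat
The shared stretch of Dlgap3 held 1 CpG, and 90.2% of H4K8ac peak centres held at least as many. RefSeq promoters of 300 bases, from 250 before a start to 50 after, were found for 7 of the 10 members, 10 promoters in all. The Dlgap3 promoter was overlapped in 3 H4K8ac lists and the other 9 in none. It was the poorest in CpG, with 2 CpG, a number reached by 85.9% of all promoters. The promoters with no H4K8ac peak included Dlgap4 with 50 CpG, Homer2 with 49, Shank3 with 40 and Homer1 with 26, numbers reached by 0.855%, 1.02%, 3.91% and 16.9% of all promoters. Over all 32851 promoters in that table, 26.4% were overlapped by an H4K8ac peak in at least 1 list. Of promoters with 20 or more CpG 42.2% were, against 0 of 4 in the family, and of those with fewer CpG 20.7% were, against 1 of 6. The Dlgap3 promoter held none of the motifs searched, of which GGGCGG was the most common over all promoters, in 35.7%.

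Dlgap4 (chr2:156613705-156764363, plus strand), which binds Dlg scaffolds like the other Dlgap proteins, had 1 peak in each exercised list and 2, 4 and 2 peaks in sedentary SIT, left and right separate. No place was held by more than 2 lists. The 2 promoter peaks, in sedentary left separate and sedentary right separate, were near the start of a short transcript at the 3′ end (chr2:156761875-156763942). No start was inside a peak, and the nearest peak was 27.4 kb from the 5′ end of the gene.

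Homer1 (chr13:93299635-93405129, plus strand), which makes both the long scaffold and the short activity-induced form, had 2, 1 and 0 peaks in exercised SIT, left and right separate and 3, 9 and 1 in the sedentary lists. It was the one member whose annotated 5′ end was inside an H4K8ac peak, in exercised left separate, sedentary SIT and sedentary left separate (chr13:93299186-93301012, 908 bp in common). The start there, at 93299635, is that of a non-coding transcript. Neither RefSeq promoter of Homer1 was overlapped. A place in intron 9, 100 kb into the gene and near its 3′ end (chr13:93398548-93400876), was held by exercised SIT and all 3 sedentary lists. Exercised right separate held no peak assigned to Homer1, but 1 peak over the gene was assigned to Jmy, so that the absence there rests on the assignment.
Homer1 intron 9 place, chr13:93399804-93400103, plus strand, capitals at CpG: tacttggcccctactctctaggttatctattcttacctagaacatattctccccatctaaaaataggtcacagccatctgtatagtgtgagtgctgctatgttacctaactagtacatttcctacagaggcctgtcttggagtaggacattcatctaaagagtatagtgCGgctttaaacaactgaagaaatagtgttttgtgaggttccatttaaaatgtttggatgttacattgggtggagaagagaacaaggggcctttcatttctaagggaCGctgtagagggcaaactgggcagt
This Homer1 window, shown as the Homer1 place with most lists, held 2 CpG and 41.7% G+C and none of the motifs.

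**Figure D5:**
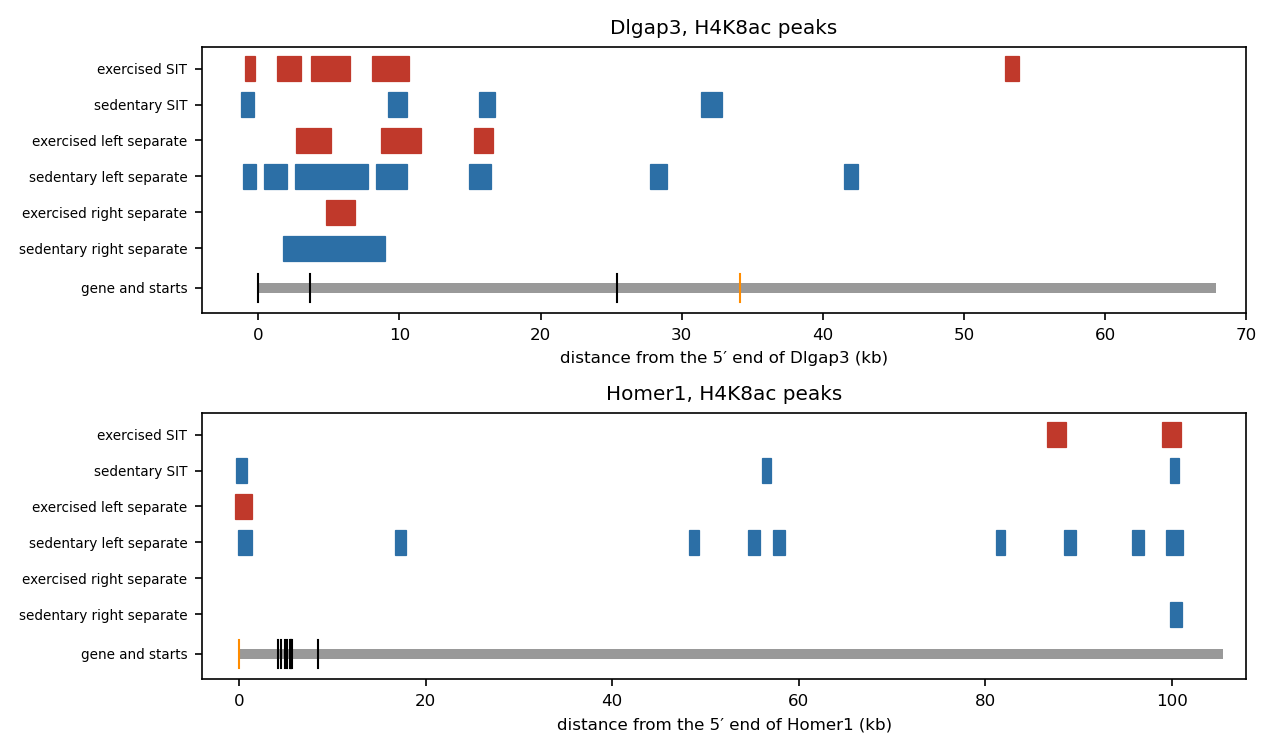
H4K8ac peaks (bars, red for exercised and blue for sedentary lists) along Dlgap3 and Homer1, with distance in kb from the 5′ end of the gene on the x axis and 1 row for each list. Black ticks are starts of protein-coding transcripts and orange ticks are other starts. Dlgap3 bars stand near the 5′ end in all lists, and most Homer1 bars are in sedentary left separate, which holds 9.

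Homer3 (chr8:70282827-70294361, plus strand), the shortest member at 11.5 kb, had 1, 1 and 2 peaks in exercised SIT, left and right separate and 1, 2 and 1 in the sedentary lists. All lay in one place before the gene (chr8:70277480-70282732), which was held by 6 of 6 lists and came within 95 bp of the 5′ end. The stretch of 857 bp that 4 lists shared, those of the separate arms, overlapped the gene Sugp2 on the same strand. The peaks over it cannot be given to Homer3 apart from Sugp2. The rest of the place, with the SIT peaks, was not checked against other genes. Of 8 peaks 7 were in the promoter class.

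Over the family, a promoter peak of H4K8ac was present for 6, 7 and 5 of the 10 members in exercised SIT, left and right separate and for 6, 8 and 5 in the sedentary lists. Over all 16994 symbols with a peak of either mark the shares were 40.6%, 15.0% and 17.9% in the exercised lists and 26.1%, 38.0% and 28.3% in the sedentary lists. With promoters held to 1 kb, the members numbered 6, 6 and 2 in the exercised lists and 5, 5 and 3 in the sedentary lists, beside 36.5%, 12.9% and 15.6% and 21.9%, 33.1% and 25.2% of all symbols. The counts in exercised right separate, sedentary left separate and sedentary right separate were thus lower by more than 1.5 times. The members had 4 to 17 annotated starts each. The part of gene length and number of starts in these shares was not tested. Over the 3 arms, 18 of 30 pairs of member and exercised list and 19 of 30 pairs of member and sedentary list held a promoter peak. Of these, Shank3, on which the family was chosen, supplied 3 exercised pairs and no sedentary pair. Homer3, whose place overlapped Sugp2, supplied a pair in each of the 6 lists. When a start had to lie inside a peak, both counts of pairs were 10 of 30. Of the 88 starts, 14 were inside an H4K8ac peak in at least 1 list: 6 of Dlgap1, 4 of Shank2 and 1 each of Shank3, Dlgap2, Dlgap3 and Homer1. The shares of all symbols and of all annotated starts by this measure were not computed. Whether these counts of starts inside peaks are high or low is thus not known.

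By condition, 3 members were in the exercised H4K8ac list alone in SIT (Shank1, Shank3 and Homer2), 1 in left separate (Shank3) and 1 in right separate (Shank3), beside 27.5%, 3.58% and 9.14% of all symbols. The family was chosen on Shank3, so its part of these counts was fixed by that choice and cannot be set against the shares. Apart from Shank3, the exercised side held Shank1 and Homer2 in SIT and no member in left or right separate. In the sedentary list alone there were 0 in SIT, where the share of all symbols was 10.1%, 1 in left separate (Shank1), where it was 51.9%, and 2 in right separate (Homer1 and Homer2), where it was 36.7%. Listed in both conditions were 7 members in SIT, 8 in left separate and 6 in right separate, where Shank1 was in neither list. The shares of all symbols are over those listed in at least 1 condition of the arm. With the sedentary left separate list held to as many of its widest peaks as the exercised list had, Shank1 was no longer in it, and Dlgap4 and Homer1 were in the exercised list alone.

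The 364 H4K8ac peaks of the family formed 174 places, of which 110 were in 1 list, 41 in 3 or more and 7 in all 6. Of these places 49 were held in both conditions, 37 in exercised lists alone and 88 in sedentary lists alone, of which Dlgap1 supplied 50. In percent of places these were 28.2%, 21.3% and 50.6%, beside 42.8%, 19.4% and 37.8% over the places of all symbols. Without Dlgap1 they were 26.8%, 26.8% and 46.3%. In SIT, 36.2% of the exercised peaks of the family overlapped a sedentary peak of the arm, beside 43.9% of all exercised peaks. The values were 57.6% beside 73.1% in left separate and 59.5% beside 68.0% in right separate. Of sedentary peaks, 45.5% overlapped an exercised peak beside 59.0% of the whole list in SIT, 16.4% beside 25.2% in left separate and 45.8% beside 35.6% in right separate. The share of the family was lower than that of its list in all of these but sedentary right separate, and that exception rested on Dlgap1. Without Dlgap1 the right separate shares were 25.0% of sedentary and 36.4% of exercised peaks. By class, 72.5% of the family's H4K8ac peaks were intronic and 15.7% in promoters, where whole lists had 34.6 to 40.1% intronic and 19.3 to 26.5% promoter peaks. The lower promoter share rested on Dlgap1. Without it, promoter peaks made up 31.4%, 35.3% and 36.4% of the family's peaks in exercised SIT, left and right separate, beside 24.2%, 25.2% and 26.5% of the whole lists. In the sedentary lists they made up 31.8%, 25.0% and 25.0%, beside 19.3%, 24.3% and 24.1%. In sedentary left separate (14 of 56 peaks) and right separate (4 of 16) the share was thus near that of the whole list.

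Of 30 partners of these scaffolds at the postsynapse, from Dlg scaffolds and glutamate receptors to Shank-binding actin regulators, 4 were in the exercised H4K8ac list alone in SIT, 2 in left separate and 3 in right separate, and 1, 5 and 3 in the sedentary list alone. The shares of all symbols were 27.5%, 3.58% and 9.14% on the exercised side and 10.1%, 51.9% and 36.7% on the sedentary side. Both conditions held 18, 17 and 17, and neither condition held 7, 6 and 7 of the 30. The shares are over symbols listed in at least 1 condition of the arm, so their base leaves out such unlisted genes. In no H4K8ac list at all were 5 partners. No partner was on one side in all 3 arms for either mark. Promoter peaks of H4K8ac were present for 17, 10 and 13 partners in the exercised lists and 12, 19 and 16 in the sedentary lists, where all symbols had 40.6%, 15.0% and 17.9% and 26.1%, 38.0% and 28.3%. In all 6 lists they were present for 5 partners: Dlg1 (2 to 12 peaks a list) and Dlg2 (10 to 90), scaffolds that bind Dlgap proteins, Itpr1 (17 to 34), the calcium channel of internal stores that Homer binds, Kalrn (9 to 49), an exchange factor of dendritic spines, and Psd3 (14 to 34), an exchange factor for ARF GTPases. The share of all symbols with a promoter peak in all 6 H4K8ac lists was not computed, so this count has no background. H3K27me3 was assigned to 4 of the 30 in any list: Dlg1, Dynll2, Itpr1 and Psd3. Among all 16994 symbols with a peak of either mark, 7399 had H3K27me3 in at least 1 list.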

How the data were processed

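CUT&RUN-seq of H4K8ac, H3K27me3 and IgG was analysed as 12 peak lists of Emx1-NuTRAP hippocampal nuclei. Per the paper's methods and the submitters' processing notes, the authors checked reads with FastQC 0.11.9, aligned them with Bowtie2 2.4.1, called peaks with SEACR (stringent) and annotated them with ChIPseeker 1.8.6 against mm10 with promoters of 3 kb either side of a start. The libraries that the authors left out for a high false discovery rate were all exercised H4K8ac libraries, most of them of the separate arms. How libraries were joined into a list is not stated. The deposited columns are positions, widths and distances in bp, with no count or signal, so the depth and precision behind a list are unknown, although the methods set a minimum of reads per library, and no test was run in place of replicates. Signal tracks were not used here.

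A peak was given to the gene of its deposited symbol. GENCODE M21 (GRCm38) gave genes, starts and exons, and 99.0% of transcripts named in the lists were in it with the same version. Peaks sharing at least 1 bp across the 6 lists of a mark were merged into places. "In the exercised list alone" means at least 1 peak there and 0 in the sedentary list of that mark and arm. The members, partners, markers and all rules were chosen with earlier results of these data known. Named were all 10 members, partners on one side in 3 arms or with a promoter peak in 6 lists of a mark, partners with H3K27me3 in any list (chosen after their values were seen), and the 5 symbols nearest to Shank3 in summed width with the same presence over lists. The alternatives were promoters within 1 kb, starts inside peaks, peaks over the gene whatever their assignment, equal numbers of widest peaks, peaks of 1000 bp or more, at least 2 peaks, promoter peaks alone, and a reciprocal overlap of 50%. Sequences were read from RefSeq GRCm38.p6. Of Shank3 starts, 1 came from the lists and is not in GENCODE M21. Interval functions were tested on simulated data and matched base-by-base counts in 50 of 50 sets. Python 3.11.15, numpy 2.4.6, pandas 2.3.3, pysam 0.24.0 and matplotlib 3.10.9 were used. IgG samples were not used here.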

Additional observations from a re-analysis of the deposited data

Results flagged for a closer look

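By presence or absence of H4K8ac peaks, 2 members were in the exercised list alone in 1 arm and in the sedentary list alone in another, each with 1 list per condition, and the difference was not tested. For Homer2, the exercised minus sedentary number of peaks was 1 in SIT (1 against 0) and -3 in right separate (0 against 3). For Shank1, it was 1 in SIT (1 against 0) and -2 in left separate (0 against 2). By number of peaks alone, Shank2, Dlgap1, Dlgap2, Dlgap3 and Homer3, listed in both conditions, also had more in the exercised list of 1 arm and fewer in that of another. The exercised list was the longer in SIT and the shorter in both separate arms.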

How the results depend on the processing

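Of 63 recomputed counts, 45 stayed within 1.5 times of the reported one and 18 did not. With a start inside a peak required, H4K8ac promoter pairs came to 10 (exercised) and 10 (sedentary). Counting promoter peaks alone, members in the exercised H4K8ac list alone came to 1 in SIT, and members in the sedentary list alone came to 1 in SIT, 2 in left separate and 1 in right separate. With at least 2 peaks required, the exercised side came to 1 in SIT and 0 in left separate, and the sedentary side to 1 in SIT and 5 in left separate. At equal numbers of widest peaks, the exercised side came to 3 and the sedentary side to 0 in left separate, and the sedentary side to 1 in right separate. With peaks over the gene whatever their assignment, the sedentary side came to 1 in right separate. For H3K27me3, the sedentary side came to 0 with promoter peaks alone and 0 with peaks over the gene, and the exercised side to 1 with at least 2 peaks. At equal numbers of widest peaks the sedentary side stayed at 1, but Homer2 was then in the sedentary list alone in left separate and no longer in right separate. In most of these the alternative holds fewer peaks by construction; for the rest the cause was not tested. With at least 2 peaks required, Shank3 was in the exercised list alone in 1 arm in place of 3. A reciprocal overlap gave 34 H4K8ac places in 3 or more lists, from 41. No paired analysis was possible because the lists carry no sample or replicate number.

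The lists bound these results: absence from a list is absence of a called peak, at unknown depth.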
